A study of Mus musculus with 11 samples.

Results

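Peritoneal macrophages of 4 RαTd/Td mice, which lack the secreted protein RELMα (gene Retnla), were compared with those of 3 Rα+/+ mice, all 7 injected with IL-4c. These 7 mice are all of the IL-4c-treated mice analysed, out of 11 in the series, and the other 4 received PBS (2 of each genotype). All gene probes of a Nanostring myeloid panel were taken, the control probes were dropped, and the 445 of 754 genes whose mean over the 11 mice lay above 30 normalized counts were tested. The remaining 309 genes were listed at 30 in all 11 mice. That value is a floor put in place of low counts, so a gene listed at 30 has an upper limit and no level.

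The mice were females of 6 to 8 weeks. Each was injected in the peritoneum on days 0 and 2 with PBS or with IL-4c, which is IL-4 held in a complex with the anti-IL-4 antibody 11B11, and F4/80+CD11b+ cells were sorted on day 4. The Rα+/+ mice are labelled as C57BL/6 wild type. The RαTd/Td mice are homozygous for an allele in which part of Retnla is replaced by the coding sequence of the red fluorescent protein TdTomato. A Cre-deleter line was used in making the allele, so Retnla is lost throughout the animal, and a difference between the genotypes is not limited to what macrophages themselves do. The knockout macrophages also carry the reporter, which the wild-type macrophages do not. Each sample came from a separate mouse, and the experiment was performed once. The IL-4c-treated Rα+/+ mice are numbered 5, 6 and 7 and the IL-4c-treated RαTd/Td mice 9, 10, 11 and 12 (the PBS-treated mice 1 and 2, and 3 and 4), and values given one after another for a gene follow that order. A further IL-4c-treated Rα+/+ mouse, which the study set aside as an outlier whose profile lay with the PBS-treated mice, was not analysed here.

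IL-4 acts through the IL-4 receptor and the transcription factor STAT6 and turns macrophages towards the alternatively activated, or M2, state, in which Arg1, the chitinase-like proteins and Retnla are strongly expressed. In the peritoneal cavity it also drives the resident macrophages to proliferate. RELMα is a small protein that these cells secrete in large amounts, so its loss removes a major product of the M2 cell. Most F4/80+CD11b+ cells of the cavity are large peritoneal macrophages, which depend on the transcription factor Gata6 and clear dying cells, and a smaller population, the small peritoneal macrophages, derives from monocytes and carries more MHC class II.

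Of the 8 markers of large peritoneal macrophages on the panel, 7 were above the floor in all 7 mice, and Cxcl13 was so in the 4 RαTd/Td mice alone. Gata6 lay between 536 and 654 normalized counts in the Rα+/+ mice and between 560 and 645 in the RαTd/Td mice. Timd4, a receptor for apoptotic cells, lay between 1044 and 1236 and between 1307 and 1646. Of the 3 markers of T and NK cells and the 10 of eosinophils and mast cells on the panel, none left the floor in any of the 7 mice, and of the 2 of B cells Ms4a1 alone did so, in 1 RαTd/Td mouse (mouse 12) at 63.1. In bulk samples such as these, fewer cells of a type and less RNA per cell cannot be told apart.

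Several properties of the assay moved with genotype. The depth, taken as counts above the floor before normalization, was 487815 to 574505 in the Rα+/+ and 447267 to 523942 in the RαTd/Td mice, and Retnla alone held 20.7% to 25.7% of it in the Rα+/+ mice. Without Retnla the order turned, to 384179 to 426596 in the Rα+/+ and 447267 to 523942 in the RαTd/Td mice, with no overlap. The geometric mean of the 6 positive control probes was 301 to 441 counts in the Rα+/+ and 507 to 623 counts in the RαTd/Td mice, with no overlap. Between 357 and 360 genes were above the floor in the Rα+/+ and between 374 and 391 in the RαTd/Td mice. The smallest measurable value was similar, 34.4 to 36.4 against 30.5 to 34.4 normalized counts. The part of these properties in the results was not tested.

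Of the 445 genes, 12 (2.7%) differed between the genotypes after IL-4c at an adjusted p of 0.05 or less in limma, which was fitted to log2 values of all 11 mice. Of these, 7 (1.57% of those tested) were higher and 5 (1.12%) were lower in RαTd/Td macrophages. The higher genes were the MHC class II genes H2-Ab1 and H2-Aa, the receptors Cd14 and Mertk, the chemokine Cxcl13, Rgs1 and Rab20. For each of these 7 the fitted log2 change from PBS to IL-4c in Rα+/+ mice was below 0, from -0.44 (H2-Ab1) to -5.85 (Cxcl13). Of the genes not called, some such as C1qc, Fn1 and Dusp1 also lay below 0, and others such as Klf4 and Fcgr2b above. The share below 0 among all tested genes was not taken, so the change is not shown to set the 7 apart. The lower genes were Retnla, Dusp2, Il1a, Acot11 and Nfatc2. Without adjustment 97 genes (21.8%) passed, 84 higher (18.9%) and 13 lower (2.92%). The values of the 3 and the 4 mice did not overlap for 84 genes (18.9%), of which 73 (16.4%) were higher and 11 (2.47%) lower in the RαTd/Td mice. For a single gene, the smallest two-sided p that an exact permutation test can give with 3 against 4 mice is 0.0571, so the calls rest on the spread that limma shares over groups and genes.

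The bulk of the panel also lay on the higher side. The median log2 difference, RαTd/Td minus Rα+/+, was 0.12 with quartiles of -0.01 and 0.35, and 70.3% of the tested genes were above 0. With the 77 genes that had a group wholly at the floor set to their bounds, the median was 0.097. The median standard error was 0.16. When each mouse was centred on its median gene, 3 genes were called higher and 5 lower (37.5% higher, against 58.3% with the deposited normalization), and with quantile normalization 5 were called higher and 7 lower (41.7%).

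**Figure D1:**
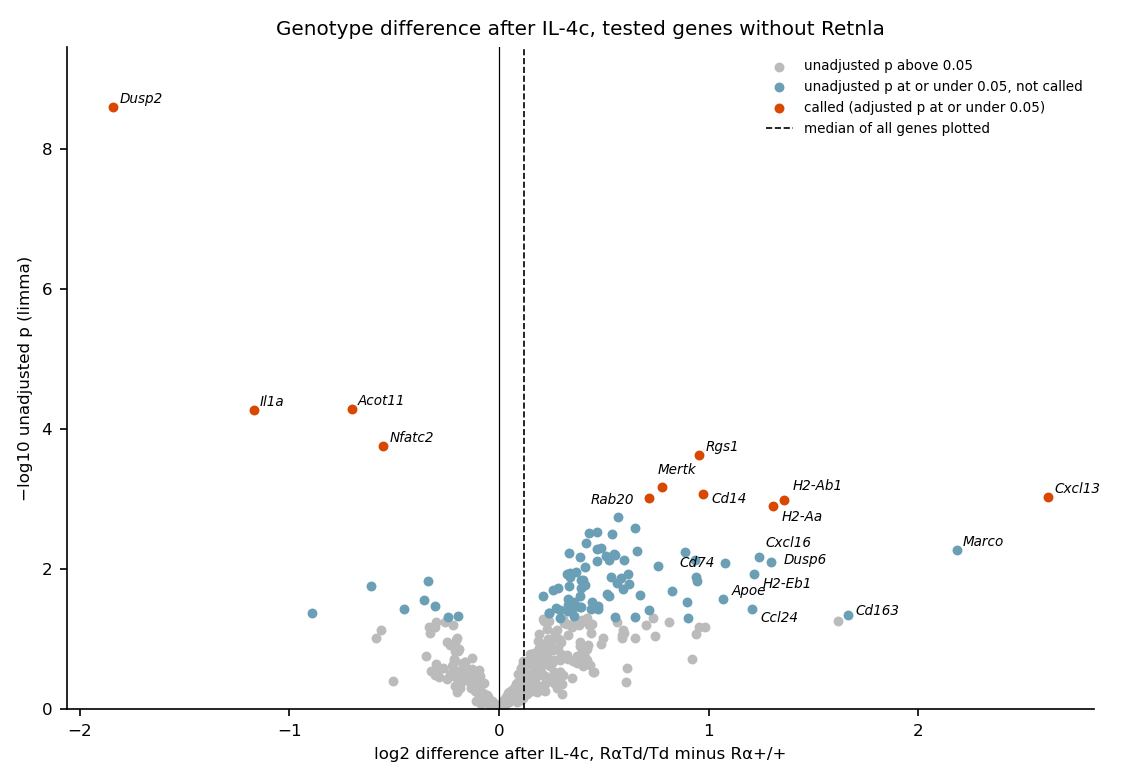
Log2 difference between RαTd/Td and Rα+/+ macrophages after IL-4c (horizontal axis) against the unadjusted limma p on a negative log10 axis, 1 point per tested gene, for 444 genes with Retnla left out because its difference of -12.17 lies far to the left. The dashed line marks the median of the genes plotted. More points with low p lie on the right, and Dusp2 stands apart on the left.

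Retnla checked the genotype in every mouse. It read 115675, 147349 and 171588 normalized counts in the 3 Rα+/+ mice and was at the floor in all 4 RαTd/Td mice. The RαTd/Td mice were thus at least 4429-fold lower, a limit set by the lowest measurable value in those mice. In the PBS-treated mice Retnla read 4631 and 4141 in Rα+/+ and was again at the floor in both RαTd/Td mice, so no mouse went against its label. The sequence just upstream of the Retnla start is shown because the gene responds to IL-4 through STAT6. It is the 170 bases before the start of the gene in the RefSeq annotation of GRCm38.p6, chr16:48842439-48842608, plus strand, with a match to the STAT motif, the letters TTC and GAA with 4 bases between them, in capitals; the motif reads the same on both strands. The match begins 145 bases before the start, and 3.67% of 32851 promoter windows of this length hold such a match.
Retnla: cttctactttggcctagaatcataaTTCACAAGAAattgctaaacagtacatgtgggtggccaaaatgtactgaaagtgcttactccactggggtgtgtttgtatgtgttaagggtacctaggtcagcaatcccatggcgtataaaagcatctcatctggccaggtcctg

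After Retnla, the lowest adjusted p was that of Dusp2, a nuclear phosphatase that switches off MAP kinases. Dusp2 read 99.6, 110 and 121 normalized counts in the Rα+/+ mice and was at the floor in all 4 RαTd/Td mice. The groups did not overlap, and RαTd/Td macrophages were at least 3.40-fold lower (fitted log2 difference -1.84, SE 0.09, adjusted p = 5.69e-07). None of the 4 PBS-treated mice had Dusp2 above the floor, so it was measurable only in the IL-4c-treated Rα+/+ mice of the 11. Mice at the floor add no spread to the fit, so this SE and p can be too small.

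Il1a, which encodes the inflammatory cytokine and alarmin IL-1α, was measured in all 7 mice. It read 113, 141 and 108 normalized counts in Rα+/+ and 40.0, 68.2, 56.1 and 50.5 in RαTd/Td mice, or 121 ± 17.6 (SD, n = 3) against 53.7 ± 11.8 (SD, n = 4). The highest RαTd/Td mouse lay well below the lowest Rα+/+ mouse. The log2 difference was -1.17 (SE 0.17, 95% interval -1.55 to -0.79, adjusted p = 0.00594). No PBS-treated mouse had Il1a above the floor, and its difference between the treatments was not called (adjusted p = 0.0569). The PBS-treated mice thus add no spread to the fit, and the SE, interval and p of Il1a can be too small. In a limma fit of the 7 IL-4c-treated mice alone Il1a was not called.

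The remaining 2 lower genes sat close to the floor. Acot11, an acyl-CoA thioesterase, read 44.7, 58.2 and 46.4 in Rα+/+ and was at the floor in all 4 RαTd/Td mice, at least 1.53-fold lower (adjusted p = 0.00594). Nfatc2, a calcium-regulated transcription factor, read 44.7, 51.0 and 41.8 in Rα+/+, 33.3 in 1 RαTd/Td mouse (mouse 9) and the floor in the other 3. Its log2 difference was -0.55 (SE 0.09, adjusted p = 0.0158). Both were at the floor in the PBS-treated mice. Retnla, Dusp2, Il1a and Acot11 stayed called when any of the 11 mice was left out. Nfatc2 lost its call without mouse 5, where its difference was -0.57 and its adjusted p 0.0523. The fits with a mouse left out do not test the part of the floor, since PBS-treated mice at the floor stayed in each of them. With the 7 IL-4c-treated mice alone, Retnla and Dusp2 stayed called, and Il1a, Acot11 and Nfatc2 were not called. With a common floor of 56.3 for all mice, Acot11 and Nfatc2 differed by -0.02 and 0.00 and were not called, while Dusp2 at -0.95 and Il1a at -1.01 were.

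**Figure D2:**
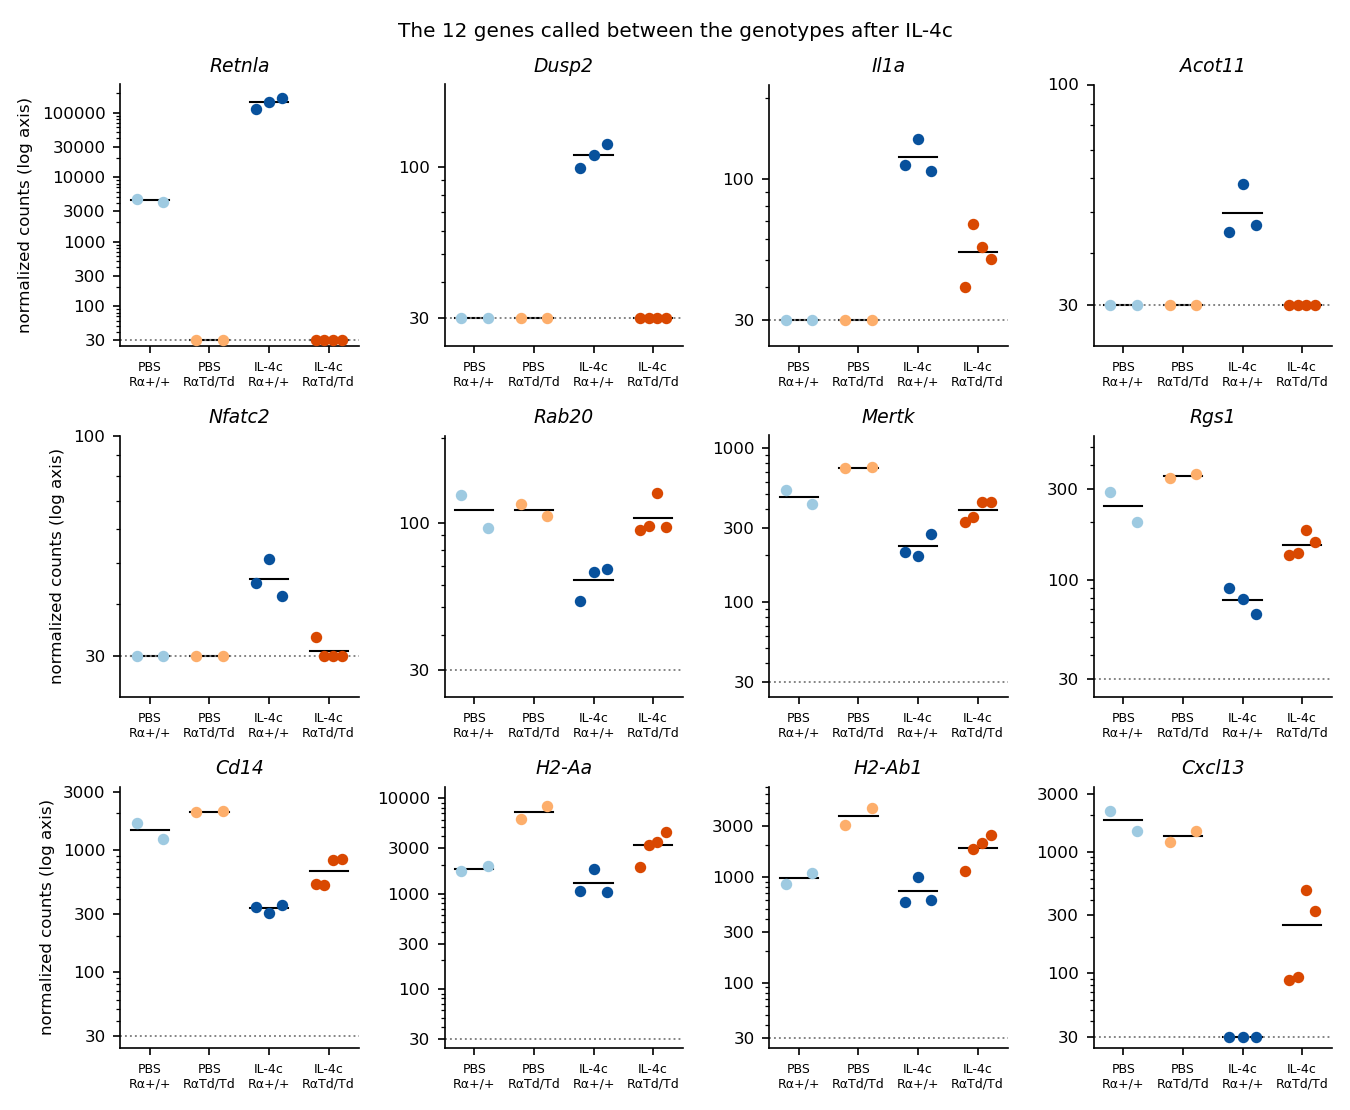
Normalized counts on a log axis of the 12 genes that differed between the genotypes after IL-4c, 1 point per mouse in the 4 groups, with a bar at the arithmetic mean of each group and a dotted line at the floor of 30. Dusp2 and Acot11 leave the floor in the IL-4c-treated Rα+/+ mice alone, and H2-Ab1 and H2-Aa are highest in the PBS-treated RαTd/Td mice.

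Among the genes that were higher without RELMα, those of MHC class II antigen presentation are taken first. MHC class II molecules display peptides to CD4 T cells, H2-Ab1 and H2-Aa encode the chains of I-A, H2-Eb1 a chain of I-E, and Cd74 the invariant chain that guides them to the endosome. All 8 tested members were above 0, 2 were called higher and 6 passed without adjustment, with a median log2 difference of 0.82. Over all tested genes 70.3% were above 0, 1.57% were called higher, 18.9% were higher without adjustment and the median was 0.12. The 8 levels summed to 4847, 7686 and 4590 normalized counts in Rα+/+ and to 7275, 12650, 13603 and 18451 in RαTd/Td mice, so mouse 9 stood below the highest Rα+/+ mouse, mouse 6.

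H2-Ab1 read 575, 1000 and 608 normalized counts in Rα+/+ and 1132, 1839, 2077 and 2490 in RαTd/Td mice. The groups did not overlap, though the gap between mouse 6 and mouse 9 was small. The log2 difference was 1.36 (SE 0.29, 95% interval 0.71 to 2.02, adjusted p = 0.0421). H2-Aa read 1081, 1807 and 1034 against 1928, 3218, 3490 and 4431, with mouse 6 and mouse 9 again close, and a log2 difference of 1.31 (SE 0.29, adjusted p = 0.0474). Both genes kept their call with mouse 6 or mouse 9 left out and lost it with any of the other 9 mice left out, with differences that stayed positive.

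The other members were not called. H2-Eb1 read 420, 605 and 266 against 471, 1016, 1106 and 1523 (log2 difference 1.22, adjusted p = 0.126), and its groups overlapped through mouse 9. Cd74 read 2424, 3891 and 2298 against 3331, 6055, 6332 and 9394 (1.08, adjusted p = 0.104), again with mouse 9 inside the Rα+/+ range. H2-DMa and H2-DMb1, chains of the peptide-loading chaperone H2-M, differed by 0.55 (adjusted p = 0.102) and 0.56 (adjusted p = 0.137). Of the 7 IL-4c-treated mice, H2-DMb2 and H2-Ob were above the floor in mice 11 and 12 alone, and they were above it in all 4 PBS-treated mice. Without mouse 9, H2-Eb1 at 1.55, Cd74 at 1.35 and H2-DMa at 0.68 were called as well.

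Higher MHC class II is also a property of small peritoneal macrophages. The 6 markers of these cells on the panel, without Retnla, summed to 1293 to 2194 normalized counts in Rα+/+ and 2197 to 5111 in RαTd/Td mice, and H2-Aa is itself among them. Itgax and Cx3cr1 were at the floor in all 7 mice, Irf4 read 160 to 206 against 147 to 185, and Ccr2 read 34.8 to 121 against 61.9 to 464, with mouse 12 highest. The part of these cells in the MHC class II values was not tested. The same genotype difference was present without IL-4c: H2-Ab1 read 846 and 1084 in PBS-treated Rα+/+ and 3048 and 4434 in PBS-treated RαTd/Td mice (log2 difference 1.94, adjusted p = 0.0151), and H2-Aa differed by 1.97 (adjusted p = 0.0144). The difference between the treatments was -0.58 for H2-Ab1 (interval -1.66 to 0.50) and -0.66 for H2-Aa (interval -1.73 to 0.41), neither of them called.

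The promoters of class II genes share a conserved set of boxes, of which the Y box carries the letters ATTGG bound by the factor NF-Y. The 170 bases before the start are shown for H2-Aa, chr17:34287824-34287993 on the minus strand, and for H2-Eb1, chr17:34305697-34305866 on the plus strand (RefSeq, GRCm38.p6), since the values of both followed the same mice. Capitals mark ATTGG or its reverse complement CCAAT. The letters begin 48 bases before the start of H2-Aa, and 59 and 35 bases before that of H2-Eb1. Of all 32851 promoter windows of this length, 26.6% hold the letters on either strand, and the match is a description.
H2-Aa: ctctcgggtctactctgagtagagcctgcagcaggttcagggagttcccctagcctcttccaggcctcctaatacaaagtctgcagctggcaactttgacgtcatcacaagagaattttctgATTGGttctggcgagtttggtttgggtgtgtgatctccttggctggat
H2-Eb1: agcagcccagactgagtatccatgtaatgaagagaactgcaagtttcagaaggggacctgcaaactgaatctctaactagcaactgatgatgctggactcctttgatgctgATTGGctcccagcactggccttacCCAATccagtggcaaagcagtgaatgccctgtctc

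Genes by which macrophages take up dying cells and particles, most of them receptors, also lay on the higher side. The list used here also holds Pros1, Anxa1 and Rab20, which are not receptors, so Mertk is the only receptor in it that was called. All 12 tested members of the list of apoptotic cell and scavenger receptors were above 0, 2 were called higher and 6 passed without adjustment, against 70.3%, 1.57% and 18.9% of all tested genes, with a median log2 difference of 0.68. Mertk, a receptor tyrosine kinase that binds apoptotic cells through bridging proteins, read 212, 198 and 276 normalized counts in Rα+/+ and 331, 353, 442 and 442 in RαTd/Td mice. The groups did not overlap, and the log2 difference was 0.78 (SE 0.16, adjusted p = 0.0421). Rab20, a small GTPase of the phagosome, read 52.7, 66.7 and 68.5 against 94.3, 97.1, 127 and 96.4 (0.72, SE 0.15, adjusted p = 0.0421), and 3 of its 4 RαTd/Td values lay close together. After PBS, Mertk read 532 and 429 in Rα+/+ and 736 and 749 in RαTd/Td mice. Rab20 then read 125 and 95.2 against 116 and 105.

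The scavenger receptors varied from mouse to mouse. Marco, which binds bacteria and particles, read 211, 267 and 341 normalized counts in Rα+/+ and 463, 641, 2398 and 3111 in RαTd/Td mice. Every RαTd/Td mouse was above every Rα+/+ mouse, but mice 11 and 12 stood far above mice 9 and 10, and the log2 difference of 2.18 was not called (adjusted p = 0.102). Without mouse 9 it was called at 2.65. In the PBS-treated mice Marco read 2766 and 3097 in Rα+/+ and 1687 and 1326 in RαTd/Td, the opposite order, and the difference between the treatments was 3.15 (interval 0.91 to 5.40, adjusted p = 0.145). Cd163, the haemoglobin scavenger receptor, read 41.2, 109 and 52.2 against 159, 251, 52.8 and 718 (1.66, adjusted p = 0.223), and mouse 11 lay inside the Rα+/+ range. The mannose receptor Mrc1, an M2 marker, read 250, 311 and 129 against 273, 444, 253 and 989 (0.95, adjusted p = 0.241), and only mice 10 and 12 stood above all Rα+/+ mice. Timd4 differed by 0.33 (adjusted p = 0.237) and Anxa1, an inflammation-resolving protein, by 0.55 (adjusted p = 0.102).

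Cd14, the co-receptor for lipopolysaccharide, read 346, 307 and 358 normalized counts in Rα+/+ and 526, 519, 830 and 847 in RαTd/Td mice, with mice 11 and 12 highest (log2 difference 0.97, SE 0.20, adjusted p = 0.0421). It was the 1 called member of 15 tested genes of pattern recognition, where 1.57% of all tested genes were called higher. The median of the list was 0.11, close to that of all genes. Tlr4, which signals with CD14, differed by 0.02. Rgs1, which dampens signalling by chemokine receptors, read 90.5, 78.9 and 66.1 against 134, 137, 183 and 157, or 78.5 ± 12.2 (SD, n = 3) against 153 ± 22.6 (SD, n = 4). The groups were well apart, with a log2 difference of 0.95 (SE 0.17, 95% interval 0.58 to 1.33, adjusted p = 0.0176). After PBS, Cd14 read 1666 and 1230 in Rα+/+ and 2042 and 2066 in RαTd/Td mice. Rgs1 then read 289 and 200 against 344 and 359. For both genes these values lay above every IL-4c-treated mouse of both genotypes.

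Cxcl13, a chemokine for B cells that large peritoneal macrophages make, was at the floor in all 3 Rα+/+ mice after IL-4c. It read 87.6, 92.0, 484 and 327 normalized counts in the RαTd/Td mice, at least 5.37-fold higher (fitted log2 difference 2.62, SE 0.55, adjusted p = 0.0421). Mice 11 and 12 again stood above mice 9 and 10. In the PBS-treated mice Cxcl13 read 2151 and 1486 in Rα+/+ and 1202 and 1489 in RαTd/Td, above every IL-4c-treated mouse of both genotypes. The other chemokines on the higher side were not called: Cxcl16 differed by 1.24 (adjusted p = 0.102), Ccl9 by 0.94 (adjusted p = 0.131) and Ccl6 by 0.83 (adjusted p = 0.152). Ccl24, an eosinophil attractant, read 688, 587 and 387 against 657, 958, 1042 and 3689 (1.21, adjusted p = 0.201), with mouse 12 far above the other mice. Of 22 chemokines and their receptors 18 were above 0, close to the 70.3% of all tested genes, with a median of 0.42, or 0.35 with the 8 members that had a group at the floor set to their bounds. Cxcl13 and Marco are also among 8 markers of large peritoneal macrophages on the panel, which summed to 36913 to 38087 normalized counts in Rα+/+ and 44189 to 57790 in RαTd/Td mice, and the part of these cells in the values was not tested. Fn1, which encodes fibronectin, made up most of that sum, at 18494 to 20704 against 24062 to 34472, while Gata6, Alox15, Adgre1 and Selp differed by 0.03, -0.02, 0.07 and 0.19.

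The calls of the higher genes depended on single mice, on the PBS-treated mice in the fit, on the floor and on the scaling. Rgs1 was called in 7 of 11 fits with a mouse left out and lost its call without mouse 6, 7, 11 or 12, with differences between 0.84 and 1.06. Mertk kept its call without mouse 7 or 9 (range of differences over the 11 fits 0.68 to 0.92), Cd14 and Cxcl13 without mouse 9 or 10 (0.86 to 1.09 and 2.17 to 2.99), and Rab20 without mouse 9 alone (0.60 to 0.79). H2-Ab1 ranged over 1.21 to 1.61 and H2-Aa over 1.14 to 1.57. H2-Ab1, H2-Aa, Mertk and Rab20 lost their calls under both centring and quantile normalization, and all 7 lost them without a filter on low values. The differences themselves stayed positive, also after centring on the median gene (0.53 to 2.43 over the 7 genes) and quantile normalization (0.57 to 2.65).

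Of the genes of complement, 8 were tested, none was called, all were above 0 and 4 passed without adjustment, with a median log2 difference of 0.29, where 70.3% of all tested genes were above 0 and 18.9% were higher without adjustment. The 3 chains of C1q, which starts the classical pathway and tags apoptotic cells, came nearest. C1qc read 5955, 6382 and 5814 normalized counts in Rα+/+ and 7120, 8813, 10148 and 10112 in RαTd/Td mice, with no overlap (0.57, adjusted p = 0.0627). After PBS it read 15239 and 14043 in Rα+/+ and 14882 and 16576 in RαTd/Td mice. C1qa differed by 0.65 (adjusted p = 0.0818) and C1qb by 0.34 (adjusted p = 0.131), and all 3 chains were called without mouse 9. C5ar1, the receptor for the anaphylatoxin C5a, read 345, 228 and 254 against 375, 389, 512 and 1003 (0.94, adjusted p = 0.131).

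Fc receptors bind antibody-coated targets. Of 8 tested genes of Fc receptors and Syk signalling none was called and 5 passed without adjustment, against 18.9% of all tested genes as higher, with a median of 0.33. The activating receptors Fcgr3 and Fcgr4 differed by 0.66 and 0.93 (adjusted p = 0.102 for each). The inhibitory receptor Fcgr2b read 3990, 4409 and 4729 in Rα+/+ and 5112, 5038, 3706 and 4350 in RαTd/Td mice, with the groups overlapping throughout (0.05, 95% interval -0.26 to 0.35). Of 8 genes of lysosome and phagosome Rab20 was called and 4 passed without adjustment (median 0.36), against 1.57% and 18.9% of all tested genes as higher. Rab20 is also counted in the list of apoptotic cell and scavenger receptors. The proteases cathepsin S and cathepsin D, encoded by Ctss and Ctsd, differed by 0.51 and 0.47 (adjusted p = 0.102 for each).

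Of 14 tested M2 genes other than Retnla none was called, where 2.7% of all tested genes were. Of the 14, 7 were above 0, against 70.3% of all tested genes. The median log2 difference was 0.03, or 0 with the 2 members that had a group at the floor set to their bounds. The largest differences in the list were those of Ccl24 (1.21, adjusted p = 0.201), Mrc1 (0.95, adjusted p = 0.241) and Tgm2 (0.81, adjusted p = 0.231). Arg1, the enzyme that splits arginine, read 35072, 30921 and 31521 normalized counts in Rα+/+ and 31032, 33469, 23131 and 33953 in RαTd/Td mice (-0.11, 95% interval -0.89 to 0.67, adjusted p = 0.88). The groups overlapped, and the interval still allows a difference of over 0.5 on the log2 scale in either direction. In the PBS-treated mice Arg1 was lower without RELMα, at 1532 and 5062 against 510 and 753 (-2.17, adjusted p = 0.0215), and the difference between the treatments was 2.06 (interval 0.77 to 3.34, adjusted p = 0.1). The chitinase-like genes Chil3 and Chil4 behaved alike in their spread: Chil3 read 56993, 75307 and 91581 against 69620, 81626, 55754 and 43527 (-0.27, interval -0.76 to 0.23), and Chil4 differed by -0.21 (interval -0.83 to 0.41). Alox15, a lipoxygenase of resident macrophages, differed by -0.02 (interval -0.62 to 0.59), and Irf4, a transcription factor of the IL-4 response, by -0.14 (interval -0.47 to 0.19). Il1rl1, the IL-33 receptor ST2, read 356, 404 and 581 against 325, 383, 231 and 107 (-0.89, adjusted p = 0.214) and did not leave the floor in any PBS-treated mouse. Chil3 turned to 0.66 (adjusted p = 0.000106) and Arg1 to 0.50 under quantile normalization.

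The 7 tested genes of the cell cycle differed by -0.22 to 0.08, with a median of -0.09. Of these, 1 (Cdkn1a) was above 0, against 70.3% of all tested genes. None passed even without adjustment, where 18.9% of all tested genes did so as higher and 2.92% as lower. Top2a, a topoisomerase of dividing cells, read 686, 653 and 657 normalized counts in Rα+/+ and 818, 593, 540 and 534 in RαTd/Td mice (-0.12, interval -0.48 to 0.24). In the 4 PBS-treated mice it read 56.1 to 78.8, below all 7 IL-4c-treated mice of both genotypes. The replication helicase gene Mcm5 differed by -0.02 (interval -0.78 to 0.73). Ttk, a mitotic kinase gene that is not in the list, differed by -0.30 (adjusted p = 0.241) and was called lower without mouse 9, at -0.44 (adjusted p = 0.0339).

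Phosphatases and immediate early genes went both ways, with 1 called lower (Dusp2) of 11 tested and a median of -0.03. Counts of called members here are to be read against 1.57% of all tested genes called higher and 1.12% called lower. Dusp6, the phosphatase that acts on ERK, was at the floor in all 3 Rα+/+ mice and read 85.7, 34.1, 80.8 and 134 in the RαTd/Td mice. It was thus at least 2.13-fold higher, opposite to Dusp2, but was not called (fitted difference 1.30, adjusted p = 0.102). Dusp6 read 694 to 1200 in the 4 PBS-treated mice. Dusp1 differed by 0.52 (adjusted p = 0.168). Among 15 myeloid transcription factors the 1 called was Nfatc2, which was lower and lay close to the floor, and the median was 0.03. Cebpa, which sets myeloid identity, read 499, 499 and 383 against 554, 652, 959 and 1040 (0.76, adjusted p = 0.111). Batf, an AP-1 factor, read 90.5, 95.9 and 111 against 80.9, 71.3, 73.3 and 87.2 (-0.34, adjusted p = 0.131), with no overlap.

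The remaining lists held no called gene, and their counts are to be read against the 70.3% of all tested genes above 0 and the 18.9% higher without adjustment. All 17 tested genes of interferon response and MHC class I were above 0 and 7 passed without adjustment, with a median of 0.39. The class I heavy chain H2-K1 read 5625, 5876 and 5304 against 6129, 7276, 10597 and 10719 (0.59, adjusted p = 0.147). Of 12 M1 and antimicrobial genes 11 were above 0 (median 0.39), among them Cybb, the catalytic chain of the NADPH oxidase, at 0.41 (adjusted p = 0.111). Of 16 genes of survival and NF-kB 13 were above 0, close to the share of all tested genes (median 0.41), with Birc3, an inhibitor of apoptosis, at 0.54 (adjusted p = 0.0818). Growth factor and cytokine signalling (24 tested, median 0.09), costimulation and T cell contact (14 tested, median 0.16), matrix, protease and adhesion (18 tested, median 0.17) and lipid and energy metabolism (13 tested, median -0.02) lay close to the median of all genes. In the last, Fasn, the fatty acid synthase, read 102, 95.9 and 89.3 against 77.1, 81.6, 59.3 and 40.2 (-0.61, adjusted p = 0.143), and Apoe, the lipid carrier, read 458, 525 and 625 against 583, 791, 2058 and 1646 (1.07, adjusted p = 0.18). The 4 housekeeping genes had a median of 0.03.

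**Figure D3:**
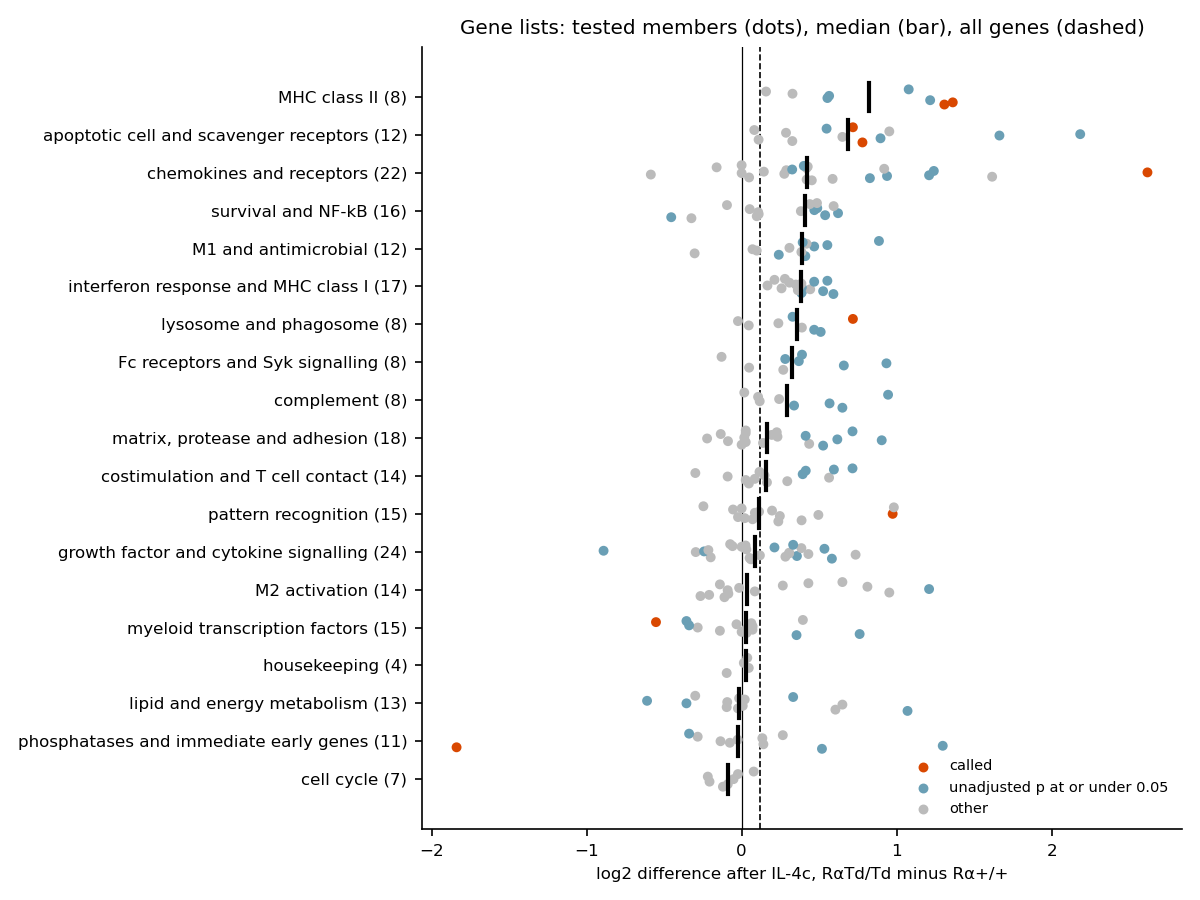
Log2 difference between RαTd/Td and Rα+/+ macrophages after IL-4c for the tested members of each gene list, 1 point per gene, with a bar at each list's median and a dashed line at the median of all tested genes; Retnla is left out. The members of MHC class II and of the apoptotic cell and scavenger receptors all lie above 0, with medians of 0.82 and 0.68, and those of M2 activation spread on both sides.

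The RαTd/Td mice analysed spread more among themselves than the Rα+/+ mice analysed, as a description without a test. The study set aside an outlying IL-4c-treated Rα+/+ mouse and no RαTd/Td mouse. That choice can lower the spread of the Rα+/+ group, and its part could not be computed here. Over the 333 genes above the floor in all 7 mice, the median SD of the log2 values was 0.14 in the 3 Rα+/+ and 0.21 in the 4 RαTd/Td mice, and 243 genes (73.0%) had the larger SD in RαTd/Td. The widest were Cd163 (SD 1.55 in RαTd/Td, 0.72 in Rα+/+), Lpl, the lipoprotein lipase (1.37 and 1.07), and Marco (1.36 and 0.35). Correlations of log2 values across genes without Retnla, which are not independent replicates, were 0.988 to 0.991 between pairs of Rα+/+ mice and 0.959 to 0.992 between pairs of RαTd/Td mice. Pairs of mixed genotype gave 0.936 to 0.989. Their median of 0.979 lay close to the 0.976 of RαTd/Td pairs, and that of Rα+/+ pairs was 0.989.

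The higher genes set the mice in an order. Over the 84 genes higher without adjustment, the median deviation from the Rα+/+ mean was 0.29 in mouse 9, 0.38 in mouse 10, 0.60 in mouse 11 and 0.70 in mouse 12. Mouse 12 was the highest of the 4 in 50 of these genes and mouse 11 in 28, and mouse 9 was the lowest in 48. All 4 mice thus stood above the Rα+/+ mean, as the choice of these genes fixes. Mouse 12 was also the lowest RαTd/Td mouse in Chil3, Chil4, Alox15 and Il1rl1, and the highest in Marco, Cd163, Mrc1 and Ccl24. S100a4, a calcium-binding protein of motile and monocyte-derived cells, read 2446, 2086 and 1307 in Rα+/+ and 1418, 1744, 2584 and 4511 in RαTd/Td mice, and mouse 12 was also highest in Ccr2 at 464. The 11 neutrophil and monocyte markers on the panel summed to 363 to 447 in Rα+/+ and 395 to 837 in RαTd/Td mice, with 7 of them at the floor in all 7 mice, and their part in the spread was not tested.

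**Figure D4:**
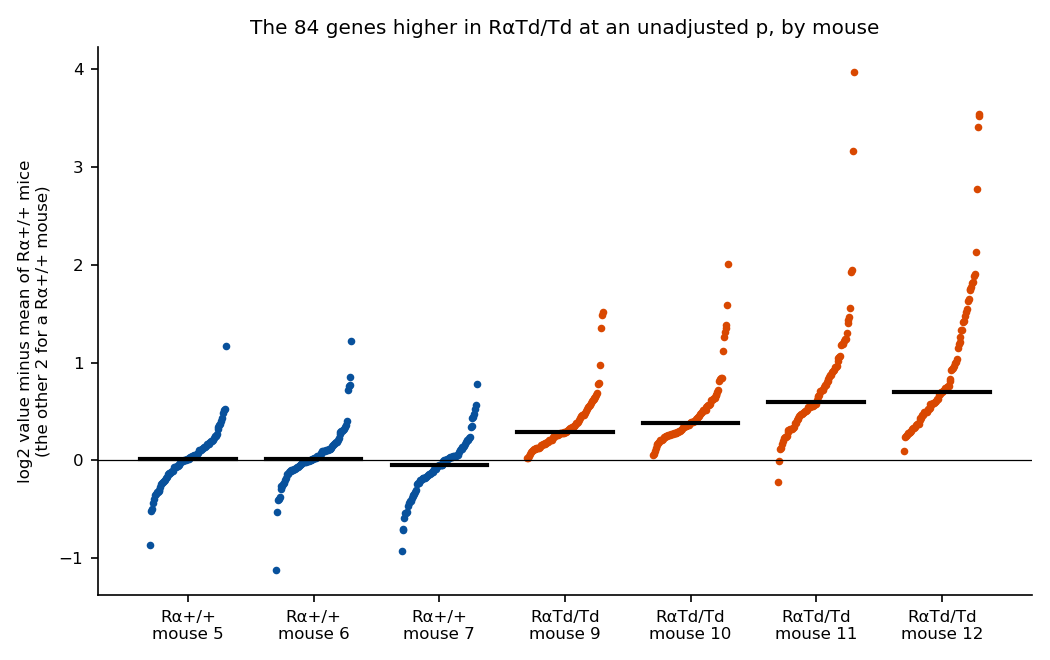
Log2 deviation from the mean of Rα+/+ mice for the 84 genes higher in RαTd/Td macrophages without adjustment, 1 point per gene in each IL-4c-treated mouse. The mean is that of the 3 Rα+/+ mice for a RαTd/Td mouse, and that of the other Rα+/+ mice for a Rα+/+ mouse. A bar lies at each mouse's median. Median deviations of the RαTd/Td mice are lowest for mouse 9 (0.29) and highest for mouse 12 (0.70), among genes chosen for this direction.

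The PBS-treated mice, which share no animal with the IL-4c-treated ones, gave the genotype difference without IL-4c. There 43 genes (9.66%) were called, 36 higher (8.09%) and 7 lower (1.57%). Retnla, H2-Ab1 and H2-Aa were called in both comparisons, which is 3 of 12 and 3 of 43. Without adjustment 29 genes passed in both, of 97 and of 102 (22.9% of those tested), and 27 of the 29 went the same way. Over all 444 genes other than Retnla the differences were hardly related, with a Pearson r of 0.09 and a Spearman rho of 0.14, and genes are not independent replicates. The medians of the lists, given without a test, were set apart in places: that of MHC class II was 1.43 after PBS and 0.82 after IL-4c, that of the apoptotic cell and scavenger receptors -0.13 and 0.68, and that of the phosphatases and immediate early genes 0.60 and -0.03. The PBS values rest on 2 mice of each genotype. Their depth was 297254 and 551546 counts in Rα+/+ and 268858 and 280396 in RαTd/Td mice, with no overlap. The lowest measurable value was 48.2 and 30.8 normalized counts in Rα+/+ and 56.1 and 56.3 in RαTd/Td mice. The part of these properties in the PBS calls, and in the difference between the treatments, was not tested.

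The difference between the treatments was tested directly, as the genotype difference after IL-4c minus that after PBS. It was called for 9 genes (2.02%), 3 above (0.674%) and 6 below 0 (1.35%), and 69 (15.5%) passed without adjustment. Dusp2 was 1 of them at -1.84 (adjusted p = 5.53e-05) and Retnla another at -5.03. Since the RαTd/Td mice were at the floor for both genes under both treatments, these values restate the change in the Rα+/+ mice, and that of Dusp2, at the floor in every PBS-treated mouse, depends on the floor and was -0.95 with the common floor of 56.3. Atf3, a stress-response transcription factor, read 425 and 309 in PBS-treated Rα+/+ and 727 and 778 in PBS-treated RαTd/Td mice, but 210 to 222 and 179 to 209 after IL-4c, a difference between treatments of -1.19 (adjusted p = 0.0154). The AP-1 gene Jun behaved likewise at -1.22 (adjusted p = 0.022), with genotype differences of 1.14 after PBS and -0.08 after IL-4c. Cxcr4, the receptor for CXCL12, differed between treatments by -1.27 (adjusted p = 0.0193) and Batf by -0.94 (adjusted p = 0.0345).

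In the other direction, Fscn1, an actin-bundling protein, read 474 and 359 in PBS-treated Rα+/+ and 99.0 and 120 in PBS-treated RαTd/Td mice, and was at the floor after IL-4c in all mice but mouse 11 at 32.3. The formyl peptide receptor Fpr1 followed the same course, from 175 and 171 against 114 and 92.0 after PBS to the floor after IL-4c in all mice but mouse 11 at 35.6. Their differences between treatments of 1.93 (adjusted p = 0.00028) and 0.81 (adjusted p = 0.044) thus come from values that IL-4c-treated macrophages of both genotypes hardly reached. Eif2b4, a subunit of a translation initiation factor, was at the floor in the PBS-treated RαTd/Td mice and differed by 0.97 (adjusted p = 0.0193). It read 56.3 and 54.7 in the PBS-treated Rα+/+ mice. The lowest measurable values in the PBS-treated RαTd/Td mice were 56.1 and 56.3, so such levels could hardly be seen there. Retnla, Dusp2 and Fscn1 stayed called with any mouse left out. With the common floor of 56.3, Cxcr4 at -0.60 and Eif2b4 at 0.04 were not called.

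**Figure D5:**
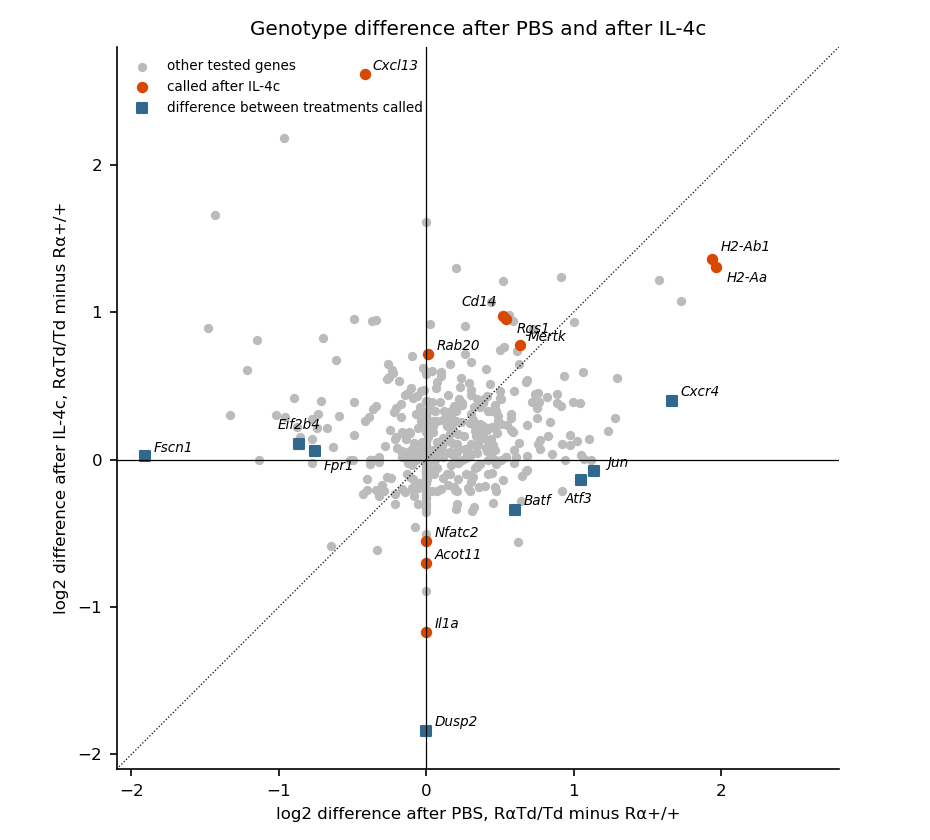
Log2 genotype difference, RαTd/Td minus Rα+/+, after PBS (horizontal axis) and after IL-4c (vertical axis), 1 point per tested gene without Retnla; squares mark genes whose difference between the treatments was called. H2-Ab1 and H2-Aa lie high on both axes, Cxcl13 and Marco lie highest after IL-4c and below 0 after PBS, and Atf3, Jun and Cxcr4 lie at 1.05 to 1.67 after PBS and near 0 or at up to 0.40 after IL-4c.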

How the data were processed

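Normalized values from sorted peritoneal macrophages of 11 mice were analysed. The authors hybridized cell lysates to a Nanostring myeloid panel (Myeloid Innate Immunity v2), scaled the counts to Rpl19, Oaz1, Gusb and Eef1g as housekeeping genes, and deposited the result as linear signal in normalized counts, with low values replaced by 30 and control probes left as raw counts. The version of their software is not given in the sources used here. Within each mouse all measured values were whole multiples of 1 factor (tolerance 0.1 counts), which gave the depth. Depth limits the precision of genes near the floor, and the number of mice limits that of the rest.

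Groups came from the labels. The log2 of each value plus 1 was fitted in R 4.3.3 by limma 3.58.1, using a coefficient for each group and all 11 mice, so that the groups of 2, 3 and 4 mice shared 1 spread. A group wholly at the floor adds no spread, so for genes with such a group the SE and p can be too small. Benjamini-Hochberg adjustment ran over 445 genes, and genes were called at 0.05 or less. A fold against a group at the floor is the geometric mean of the measured group over that of the lowest measurable values of the other. Tables were handled in Python 3.11.15 with pandas 2.3.3 and numpy 2.4.6. The fit was tested on simulated data.

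The members, gene lists and tests were chosen with earlier results of these data known. The 75 genes named by rule are Retnla, every called gene, in each direction the 10 genes with the largest difference that passed without adjustment, did not overlap between genotypes and were above 30 in every mouse of a group, the 3 members of each list with the highest mean, every gene called between treatments, and the housekeeping genes. Of these, 1 is not reported here. Other genes were named after their values were seen. Lists are described by counts and medians without a set test. Promoter sequences came from RefSeq (GRCm38.p6), and 744 of 754 symbols matched it. Alternatives were other filters, added constants, scalings, floors and moderation, the methods' t-test, and leaving out each mouse in turn.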

Additional observations from a re-analysis of the deposited data

Results flagged for a closer look

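The genotype difference itself differed between the treatments, by limma's test of the difference, for 9 genes. IL-4c minus PBS, on the log2 scale, it was -5.03 for Retnla, -1.84 for Dusp2, -1.27 for Cxcr4, -1.22 for Jun, -1.19 for Atf3, -0.94 for Batf, 0.81 for Fpr1, 0.97 for Eif2b4 and 1.93 for Fscn1. Retnla and Dusp2 also differed between the genotypes after IL-4c. As the RαTd/Td mice were at the floor for both genes under both treatments, their values restate the change in the Rα+/+ mice, and that of Dusp2 was -0.95 with a common floor. For Jun, Atf3, Eif2b4, Fscn1 and Fpr1 the genotype difference after IL-4c lay between -0.14 and 0.11, with the larger difference in the PBS-treated mice, of which there were 2 per genotype. The call was lost for Atf3 without mouse 4 or 6, for Cxcr4 without mouse 4, 6 or 7, for Eif2b4 without mouse 3, 4, 5 or 6, for Jun in 6 of the 11 fits with a mouse left out, and for Batf and Fpr1 in 7 of the 11.

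Among the 4 RαTd/Td mice, a single mouse stood far from the other 3 for 6 of the 75 genes examined, where chance marks about 1 in 20 such groups and genes are not independent. Mouse 11 was high for Rab20 at 127 normalized counts (the other 3 at 94.3 to 97.1), for Cybb at 4322 (3168 to 3319), for Fpr1 at 35.6 and for Fscn1 at 32.3. Mouse 12 was high for the chemokine Ccl6 at 6261 (3083 to 3316), and mouse 9 for Nfatc2 at 33.3. For Nfatc2, Fpr1 and Fscn1 the other 3 mice were at the floor, so these gaps are of a few normalized counts and the rate of 1 in 20 does not apply to them. Rab20, Cybb and Ccl6 were the others of the 6.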

How the results depend on the processing

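The count of 12 genes called after IL-4c was 5 without a filter on low values, 7 with a mean above 100, 7 with genes above the floor in all 7 mice, 3 with a common floor (Retnla, Dusp2 and Il1a), 2 with the 7 mice alone and 2 with the methods' t-test after Benjamini-Hochberg adjustment (Retnla and Dusp2 in both), 73 with that test unadjusted and 97 with limma unadjusted. With a mouse left out it was 5 (without mouse 5 or 12) to 27 (without mouse 9), with 6 without mouse 1, 2, 3, 4 or 11 and 7 without mouse 6 or 7. The count of 9 for the difference between treatments was 4 with a mean above 100, 2 above the floor in all 11 mice, 18 under quantile normalization, 16 with a common floor and 69 unadjusted, and 3 (without mouse 4 or 6) to 34 (without mouse 1) with a mouse left out, with 5 without mouse 5 or 7. The median difference of 0.12 was 0 without a filter, 0.18 with a mean above 100, -0.069 after centring and 0 under quantile normalization, and 0.11 to 0.14 with a mouse left out. Centring reversed small differences, of Vsir (-0.039), Sirpa (-0.071), Csf2ra (-0.069), Tnfrsf1a (-0.080), Eif2b4 (-0.080), Cdkn1a (-0.11), Fpr1 (-0.13), Tgfb1 (-0.14), Id2 (-0.12), Nfkb1 (-0.13), Gusb (-0.14), Rpl19 (-0.15), Fcgr2b (-0.14), Cebpb (-0.16), Fscn1 (-0.16), Oaz1 (-0.17), Tlr4 (-0.17) and Itgam (-0.17). Quantile normalization reversed those of Vsir (-0.058), Sirpa (-0.091), Csf2ra (-0.069), Chil3 (0.66), Tnfrsf1a (-0.10), Eif2b4 (-0.12), Chil4 (0.53), Cdkn1a (-0.12), Tgfb1 (-0.15), Id2 (-0.13), Nfkb1 (-0.15), Gusb (-0.18), Rpl19 (-0.14), Fcgr2b (-0.15), Arg1 (0.50), Cebpb (-0.24), Oaz1 (-0.19), Tlr4 (-0.23) and Itgam (-0.088). With a mouse left out, differences near 0 changed sign: Acly -0.20 to 0.011, Id2 -0.00166 to 0.16, Gusb -0.022 to 0.090, Fcgr2b -0.017 to 0.14, Arg1 -0.17 to 0.015, Cebpb -0.026 to 0.089, Oaz1 -0.027 to 0.047, Tlr4 -0.064 to 0.17, Itgam -0.040 to 0.11, Mcm5 -0.13 to 0.062 and Alox15 -0.15 to 0.27. The causes were not tested. No paired analysis was possible because the groups share no replicate numbers. The test planned for whole counts was not run, since low counts had been replaced by the floor. Genes near the floor are limited by depth.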

Other observations

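Leukotrienes and related lipid mediators are made and sensed by macrophages in allergic inflammation. Cysltr1, a receptor for cysteinyl leukotrienes, read 118, 102 and 126 normalized counts in Rα+/+ and 153, 162, 143 and 163 in RαTd/Td mice, with no overlap (log2 difference 0.43, adjusted p = 0.0818 from limma). Alox5ap, which presents arachidonic acid to the lipoxygenase of leukotriene synthesis, read 1533, 1384 and 1457 against 1784, 1694, 1821 and 2059, also with no overlap (0.33, adjusted p = 0.102). That lipoxygenase, Alox5, differed by 0.02, with overlapping values. Ptafr, the receptor for platelet-activating factor, read 171, 217 and 181 against 192, 307, 309 and 453 (0.68, adjusted p = 0.168), and Ptgs1, a cyclooxygenase, differed by -0.30 (adjusted p = 0.231). None of these genes was called with all mice, and Ptafr was called without mouse 9, at 0.89 (adjusted p = 0.031).

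Il6, which encodes an inflammatory cytokine, did not leave the floor in any PBS-treated mouse and read 157, 177 and 204 in Rα+/+ and 217, 194, 126 and 81.5 in RαTd/Td mice after IL-4c (-0.30, adjusted p = 0.579). The values of mice 9 and 10 lay in or above the Rα+/+ range and those of mice 11 and 12 below it, the mice in which Marco, Cxcl13 and Cd14 were highest.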
